A study of Mus musculus with 15 samples.

Results

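The step from 72 hours to 7 days of doxycycline in the CELF1 mouse heart was described from 6 of the 15 mice of the study, the 3 labelled 7 days against the 3 labelled 72 hours. In this model the RNA-binding protein CELF1 (also named CUGBP1) is switched on in adult heart muscle with doxycycline, and the ventricles are sequenced after different times. All 6 mice had the strain MHCrtTA/TRECUGBP1. MHCrtTA places a doxycycline-dependent activator under the promoter of the α-myosin heavy chain gene, which is used in heart muscle cells, and TRECUGBP1 is a Flag-tagged human CELF1 that answers to it. The mice were 20 to 22 weeks old and received 2 g/kg doxycycline in their food for 72 hours or 7 days, other food having been withdrawn 2 to 3 hours before it was given. Their hearts were rinsed of blood with buffered saline, the atria and some of the apex were cut away, and polyadenylated RNA of the remaining ventricle was sequenced from both ends. The other 9 mice were 3 MHCrtTA mice without the CELF1 transgene, given 2 g/kg doxycycline for 72 hours, and MHCrtTA/TRECUGBP1 mice at 12 hours (3 mice) and 24 hours (3 mice). These 9 mice entered the estimate of the spread between mice, and their range is given as background where it helps to place a value. The mice without the transgene used here were all taken at 72 hours, so the longer time on doxycycline and the longer time of induction cannot be told apart. The labels name each mouse by number and say nothing of litter, cage or day.

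CELF1 binds GU-rich stretches of RNA, where it sets the choice of exons and speeds the decay of transcripts. Its level in heart falls after birth, and it is raised again in the hearts of people with myotonic dystrophy, a disease with conduction defects and weakening of heart muscle. The adult ventricle draws most of its energy from fatty acids burned in mitochondria, and its contractile apparatus makes up much of its RNA. A ventricle under injury typically lowers those programmes, makes collagen and other matrix, and takes up macrophages.

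The induced gene was examined first. Celf1 (Cugbp1 in the table) measured 179, 181 and 159 RPKM at 72 hours and 29.5, 30.9 and 37.9 RPKM at 7 days, in the order A3278, A3281 and A3264 at 72 hours and A3345, A3283 and A3269 at 7 days, which is used for every gene in this text. Its level was lower in every 7-day mouse than in every 72-hour mouse, with a difference of -2.37 ± 0.20 in log2(RPKM + 1) and an adjusted p of 7.36e-08. RPKM is the number of reads of a gene scaled to its length and to the size of the library. Differences here are 7 days minus 72 hours with the standard error of the limma fit, 3 mice against 3, and they understate the change of genes at a low level. An exact permutation test of the same 6 values gave p = 0.1 (two-sided), the smallest that 3 mice against 3 allow. The 3 mice without the transgene lay between 33.3 and 36.1 RPKM and the 6 mice at 12 and 24 hours between 219.7 and 423 RPKM. At 72 hours Celf1 was thus above every mouse without the transgene, and at 7 days its 3 values, 29.5 to 37.9 RPKM, overlapped those of the mice without it. The mice labelled 7 days therefore showed no excess of Celf1 RNA in this table, against what their label says of induction, and "7-day" in this text means that label only. Reads of the human transgene and of the mouse gene are not separated in the table, and protein was not measured here. Myh6, whose promoter drives the activator, also fell from 72 hours to 7 days, with the values given among the contractile genes, and its part in the fall of Celf1 was not tested.

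Across the transcriptome, 4879 of 10868 genes tested (44.9%) passed the threshold of 0.05 on the adjusted p of limma. At 7 days, 2452 genes (22.6%) were higher and 2427 (22.3%) were lower. The differences reached farther upward: 290 called genes were higher by more than 2 on the log2 scale and 120 were lower by that much, and over 1 log2 the numbers were 1184 and 1023. The values of the 2 times did not overlap for 5567 genes (51.2%), among them 4611 of the called genes. The median difference over all genes tested was -0.01. Mice of different times differed by a median of 0.474 to 0.735 log2 per gene. Mice of the same time differed by 0.165 to 0.430 at 72 hours and by 0.204 to 0.323 at 7 days. The table holds 10 columns for these 6 mice, from about 16600000 to 52500000 reads each as estimated from the steps between low values. A number in the column names, whose meaning is not stated, takes 5 values over these columns, and 3 of them occur at both times. Within each of those 3, at least 98.3% of the called genes differed in the same direction, and 4715 (96.6%) did so in all 3. The calls came from these same columns, so this agreement was largely fixed in advance and is a description only.

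**Figure D1:**
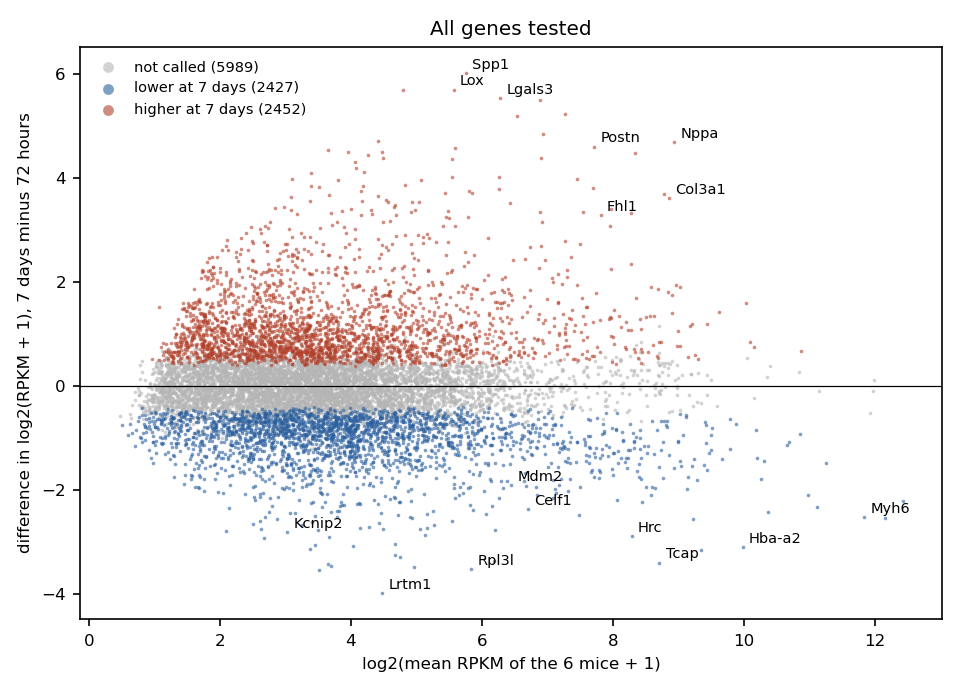
Each point is 1 of 10868 genes, with log2 of the mean RPKM of the 6 mice plus 1 across and the difference in log2(RPKM + 1), 7 days minus 72 hours, upward. Points in red passed the limma threshold as higher at 7 days and points in blue as lower. The upper part reaches 6.02 (Spp1) and the lower part -3.98 (Lrtm1), with the myosin gene Myh6 among the most abundant genes that fell.

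The 9 other mice place these differences. Of the 2452 genes higher at 7 days, 1907 (77.8%) had all 3 of their 7-day values above the 9 mice without transgene or at 12 and 24 hours, against 22.7% of all genes tested. Of the 2427 lower genes, 1278 (52.7%) had all 3 values below those 9 mice, against 13.7% of all genes. A smaller set of the lower genes had instead stood out at 72 hours: 363 (15.0%) had all 3 of their 72-hour values above the 9 mice, against 7.58% of all genes. Genes whose 72-hour values lay below all 9 mice made up 1.63% of the genes tested. These are descriptions, since the genes counted were those called in the step itself. The p53 targets and the respiratory chain show the contrast between falls of both kinds.

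Genes were grouped into 52 lists by function or cell type, and each list is described by how many of its tested members were called in each direction, beside the shares of 22.6% and 22.3% over all genes. Besides the lists for which more are given, 1 member each of the p53, DNA replication, lysosome, fibroblast, calcium handling, iron and haem, and integrin and laminin lists passed the filter on low values only through its 7-day values, which had to differ. In bulk tissue, fewer cells of a type and less RNA per cell cannot be told apart. Among lists with at least 10 members tested, the highest shares of lower members were in the citric acid cycle, branched-chain amino acid and ketone use, and oxidative phosphorylation. Macrophage genes, collagen chains, matrix proteases and matricellular proteins had the highest shares of higher members.

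**Figure D2:**
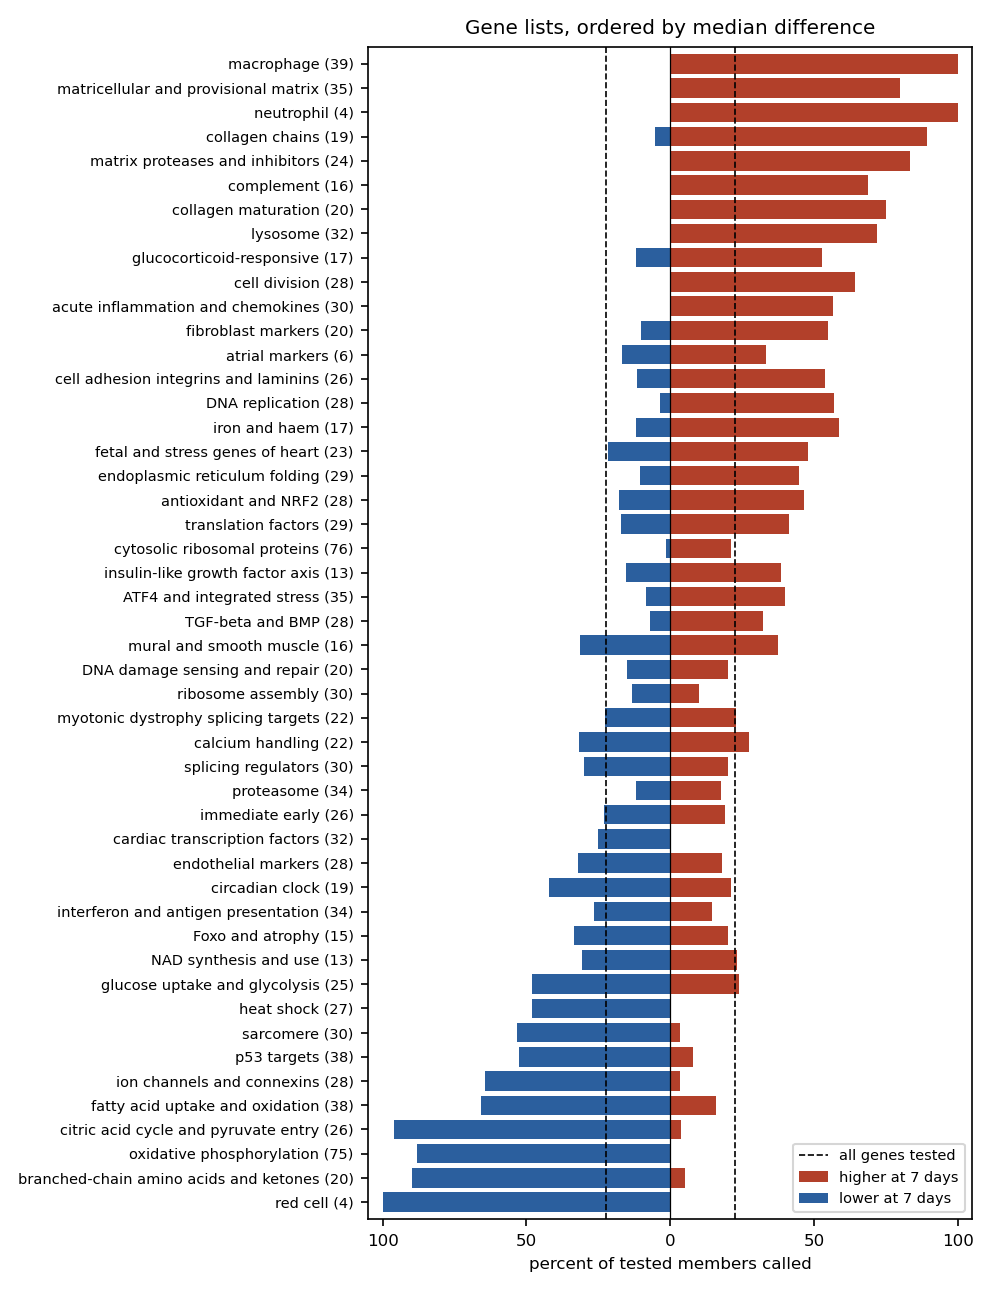
Bars give the percent of tested members of each gene list called higher (red, to the right) or lower (blue, to the left) at 7 days by limma, for lists with at least 4 tested members, the number of which is in brackets. Dashed lines mark the shares over all genes tested, 22.6% and 22.3%, and the lists are ordered by their median difference.

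Genes of the mitochondrial respiratory chain fell in nearly every member. Of 75 oxidative phosphorylation genes, all in the table and tested, 66 were lower at 7 days and 0 higher, with a median difference of -1.18. All 3 of the 7-day values lay below the 9 other mice for 66 of the 75 genes, against 13.7% of all genes tested. The fall touched every complex: 31 of 34 genes of complex I, 4 of 4 of complex II (succinate dehydrogenase), 7 of 8 of complex III, 8 of 10 of complex IV (cytochrome c oxidase) and 12 of 15 of complex V (ATP synthase) were lower. The median differences of these complexes lay between -1.14 and -1.34. Sdha, the flavoprotein of succinate dehydrogenase, measured 433, 436 and 402 RPKM at 72 hours and 157, 157 and 148 RPKM at 7 days. The values are tight within each time and far apart between them, with a difference of -1.45 ± 0.15 (adjusted p = 1.12e-06). Atp5a1, the α subunit of ATP synthase, measured 1909, 1680.2 and 1528 RPKM at 72 hours and 628, 773 and 562 RPKM at 7 days, a difference of -1.39 ± 0.18 (adjusted p = 1.06e-05). Cox8b, a subunit of cytochrome c oxidase found in muscle, measured 868, 402 and 579 RPKM at 72 hours and 189, 148 and 126 RPKM at 7 days. All 3 of its 7-day values were under the lowest 72-hour value, and A3278 stood highest at 72 hours. Among the 9 genes that did not pass were Cox7a2 (-0.29) and Uqcrb (0.01), named here after their values were seen.

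The pathways that feed the chain followed the same direction. Of 26 genes of pyruvate entry and the citric acid cycle, 25 were lower and 1 higher (median -1.18). Idh3b, a subunit of the NAD-dependent isocitrate dehydrogenase, measured 533, 525 and 492 RPKM at 72 hours and 147, 185 and 130.2 RPKM at 7 days. Idh2, its NADP-dependent relative in mitochondria, measured 729, 551 and 569 RPKM at 72 hours and 150.5, 169 and 116 RPKM at 7 days. Neither gene overlapped between the times, and the differences were -1.75 ± 0.17 and -2.08 ± 0.21 (adjusted p = 3.18e-07 and 5.63e-07). The single higher gene of this list was Pdk4, a kinase that shuts pyruvate out of the cycle, at 40.2, 84.8 and 78 RPKM at 72 hours and 317, 219 and 113 RPKM at 7 days (difference 1.61 ± 0.40, adjusted p = 0.00329). Pdk2, another kinase of the same enzyme, fell by 1.93 log2. Of 20 genes for branched-chain amino acids and ketone bodies, 18 were lower and 1 higher (median -1.43). Ivd, a dehydrogenase of leucine breakdown, measured 146, 114 and 113 RPKM at 72 hours and 27.5, 27.2 and 26 RPKM at 7 days, a difference of -2.15 ± 0.17 (adjusted p = 2.65e-08). Oxct1, the enzyme that lets the heart burn ketones, fell by 1.78 log2.

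Fatty acid genes were called in both directions, more of them lower. Of 38 genes tested, 25 were lower and 6 higher, with a median of -0.90. Genes of fatty acid oxidation were among the lower ones. Cpt2, the inner-membrane carnitine transferase, measured 113, 92.9 and 106 RPKM at 72 hours and 27.7, 24.7 and 22.8 RPKM at 7 days (difference -2.01 ± 0.17, adjusted p = 9.43e-08). Acadm and Acadvl, the medium-chain and very-long-chain acyl-CoA dehydrogenases, fell with differences of -1.78 and -1.58, and Etfa, which takes their electrons, fell by 1.65. Acadvl shares 42.85% of its exon bases with Dvl2 on the other strand. Among the higher genes were Angptl4, Ucp2, Pdk4, Cpt1a and Cd36. Angptl4, a secreted inhibitor of lipoprotein lipase, measured 2.1, 4.09 and 3.56 RPKM at 72 hours and 53.1, 49 and 17.6 RPKM at 7 days, with the lowest 7-day value in A3269. Cd36, the fatty acid transporter, measured 219.7, 450.3 and 447 RPKM at 72 hours and 739, 827 and 865 RPKM at 7 days, and its difference of 1.19 ± 0.25 passed with an adjusted p of 0.00106. Cpt1a, the outer-membrane carnitine transferase of liver type, rose by 1.36 log2.

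Of 25 genes of glucose uptake and glycolysis, 12 were lower and 6 higher. The muscle forms Pfkm (phosphofructokinase), Eno3 (enolase) and Pygm (glycogen phosphorylase) fell (log2 differences of -1.93, -2.22 and -2.19), and the insulin-responsive glucose transporter Slc2a4 fell by 1.24. Pfkm measured 324, 269 and 263 RPKM at 72 hours and 81.4, 74.6 and 66.2 RPKM at 7 days, whereas Pfkp, the platelet form of the same enzyme, measured 19.3, 15.8 and 13.9 RPKM at 72 hours and 68.7, 59.6 and 69.2 RPKM at 7 days. Pfkp was higher in every 7-day mouse, with a difference of 1.96 ± 0.22 (adjusted p = 1.93e-06). Pfkfb3, which makes the activator of phosphofructokinase, rose by 1.37 log2. Phkg1, the catalytic subunit of muscle phosphorylase kinase, was among the 25 largest falls, at 36, 25.3 and 23.1 RPKM at 72 hours and 2.81, 3.5 and 1.28 RPKM at 7 days (difference -3.08 ± 0.23).

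Some nuclear receptors known from the control of mitochondrial and lipid genes were lower. Esrra, an oestrogen-related receptor, measured 65.4, 36.7 and 41.3 RPKM at 72 hours and 24.3, 22.8 and 18.4 RPKM at 7 days. Its 7-day values all lay under its 72-hour values, with a difference of -1.06 ± 0.23 (adjusted p = 0.00117). Esrrg and Esrrb, its relatives, differed by -1.05 ± 0.17 and -0.92 ± 0.18 (adjusted p = 0.000117 and 0.000605), and Ppara, the fatty acid sensor, by -0.84 ± 0.26 (adjusted p = 0.0125), which did not pass without A3269. Of 32 transcription factors of the heart, 8 were lower and 0 higher, a share of lower genes close to the 22.3% over all genes. The share of higher genes was under the 22.6% over all genes. Sirt3, a mitochondrial deacetylase, measured 50.6, 28.1 and 30.8 RPKM at 72 hours and 8.7, 7.71 and 5.97 RPKM at 7 days, a difference of -2.11 ± 0.21 (adjusted p = 4.66e-07). Nmrk2 (Itgb1bp3 in the table), a muscle kinase that makes NAD from nicotinamide riboside, went the other way, at 13.9, 10.4 and 6.07 RPKM at 72 hours and 286, 197 and 198 RPKM at 7 days. Its difference of 4.40 ± 0.46 was among the 25 largest rises.

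**Figure D3:**
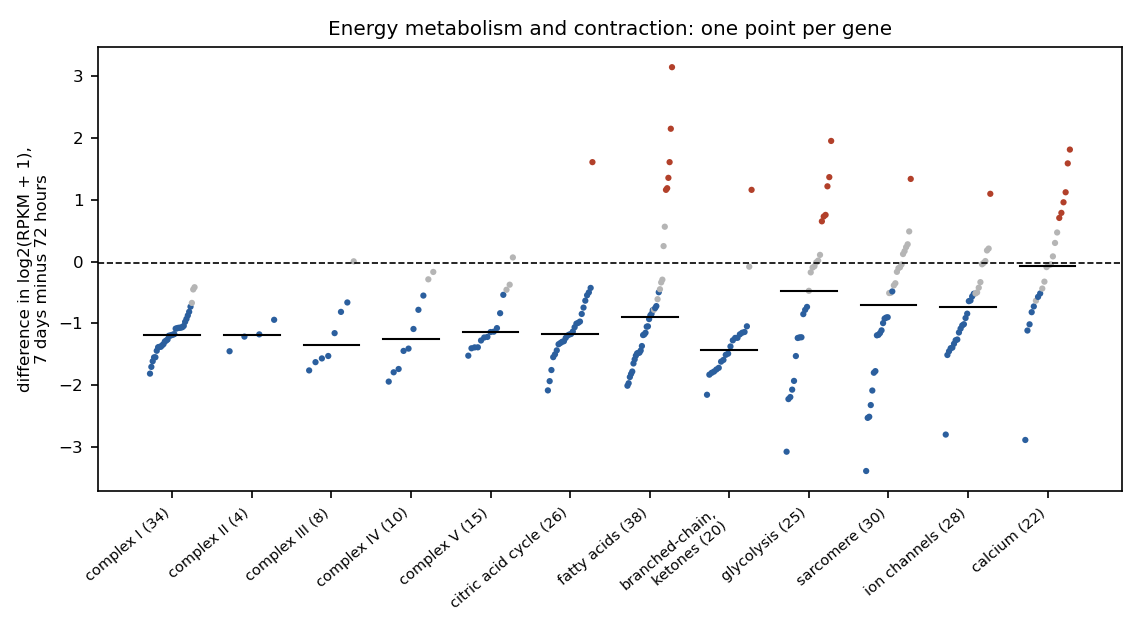
Each point is a gene, placed by its difference in log2(RPKM + 1), 7 days minus 72 hours, and coloured red (called higher), blue (called lower) or grey (not called). Black bars mark the median of each group, with the number of genes in brackets, and the dashed line marks the median of all genes. Nearly all points of the respiratory complexes and the citric acid cycle lie below 0. Calcium handling genes, called at shares not far from those over all genes, spread to both sides.

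Contractile genes fell unevenly. Of 30 sarcomere genes, 16 were lower and 1 higher (median -0.70). For 21 of the 30, all 3 of the 7-day values lay below the 9 other mice, against 13.7% of all genes tested. Myh6, the main myosin heavy chain of the adult mouse ventricle, measured 7036, 5931 and 5761 RPKM at 72 hours and 915, 1195 and 1185 RPKM at 7 days, a difference of -2.51 ± 0.21 (adjusted p = 9.02e-08). Myh7, the slow myosin heavy chain that often rises in stressed mouse hearts, also fell, at 2300.3, 2209.5 and 2197 RPKM at 72 hours and 372, 457 and 434 RPKM at 7 days (difference -2.41 ± 0.20, adjusted p = 5.41e-08). Myh6 and Myh7 are alike in sequence, so reads may be shared between them, and this was not tested. Myl2, the ventricular regulatory light chain, and Tnni3, cardiac troponin I, fell with differences of -2.53 and -2.09. The largest fall of the list was Tcap, telethonin of the Z-disc, at 994, 602 and 698 RPKM at 72 hours and 76.2, 76.9 and 59.5 RPKM at 7 days (difference -3.39 ± 0.27). Other sarcomere genes of like abundance did not pass, and their times overlapped. Actc1, cardiac actin, measured 5169.9, 3320.3 and 3991 RPKM at 72 hours and 4077, 3192 and 4363 RPKM at 7 days (adjusted p = 0.759). Tpm1, tropomyosin, measured 4497, 4038 and 3077 RPKM at 72 hours and 4486, 4794 and 3363 RPKM at 7 days (adjusted p = 0.704). Both were chosen after their values were seen, and Actc1 passed as higher after quantile normalization. The gene that rose was Pdlim5, a Z-disc adaptor, by 1.34 log2.

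Genes of the action potential fell, and those of calcium flux were called in both directions at shares not far from those over all genes. Of 28 genes for ion channels and connexins, 18 were lower and 1 higher (median -0.74). Kcnip2, the subunit that shapes the transient outward potassium current, measured 10.7, 16.8 and 12.4 RPKM at 72 hours and 0.78, 1.51 and 0.85 RPKM at 7 days, a difference of -2.80 ± 0.19 (adjusted p = 5.2e-09). Kcna5, Kcnj3 and Hcn2, channels of repolarization and pacemaking, fell with differences of -1.27, -1.33 and -1.15. Of 22 calcium handling genes, 6 were higher and 7 lower, against 22.6% and 22.3% of all genes. Hrc, a calcium store protein of the sarcoplasmic reticulum, measured 551, 598 and 495 RPKM at 72 hours and 68.8, 101 and 56.2 RPKM at 7 days (difference -2.89 ± 0.20). Slc8a1, the sodium-calcium exchanger, measured 28.6, 31.3 and 33.4 RPKM at 72 hours and 97.6, 102 and 140.2 RPKM at 7 days, all 3 of the 7-day mice being above the 72-hour mice (difference 1.82 ± 0.20, adjusted p = 1.19e-06). Without A3269, and likewise with the column number as a term, the lower count of the calcium list went from 7 to 4.

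Heart stress genes rose in part. Of 23 genes, 11 were higher and 5 lower. Nppa, the atrial natriuretic peptide, measured 67.2, 27.4 and 20.8 RPKM at 72 hours and 1233, 575 and 1012 RPKM at 7 days, a difference of 4.69 ± 0.37 (adjusted p = 3.22e-08). It shares 61.5% of its exon bases with Gm13054 on the other strand, and reads there cannot be told apart. Nppb, the related peptide of the ventricle, measured 414, 145 and 158 RPKM at 72 hours and 543, 429.9 and 667 RPKM at 7 days and rose by 1.34 log2 (adjusted p = 0.00486), with A3278 close to the 7-day mice. Nppa is also an atrial transcript, so markers of atrial muscle are given beside it. Myl7, a light chain of atrial myosin, measured 18.4, 2.46 and 1.8 RPKM at 72 hours and 11.3, 7.83 and 8.8 RPKM at 7 days. Sln, an inhibitor of the calcium pump in atria, measured 13, 1.17 and 0.955 RPKM at 72 hours and 3.31, 4.58 and 0 RPKM at 7 days. Both overlapped between the times and neither passed (adjusted p = 0.172 and 0.678). Of 6 atrial markers tested, 2 were higher, Nppa and Dkk3, and 1 was lower; Dkk3 overlapped between the times (adjusted p = 0.0474) and lost its call in 6 of the 17 alternative settings. The mouse A3278 had the highest 72-hour value of Myl7, Sln, Dkk3 and Nppa, and without it 4 of the 6 markers were higher at 7 days. With the column number as a term 4 were higher. The part of atrial tissue in the rise of Nppa was not tested. Summed over the 8 atrial markers in the table with Nppa, the level ran from 55.2 to 177 RPKM at 72 hours and from 629 to 1297 RPKM at 7 days. Nppa itself was 20.8 to 67.2 RPKM of the 72-hour sums and 575 to 1233 RPKM of the 7-day sums, most of the latter. For 3 of the 6 markers tested, Myl7 and Sln among them, all 7-day values lay below the 9 other mice. Those of 1 marker, Nppa, lay above. Over all genes tested the shares were 13.7% below and 22.7% above. Fhl1, a stretch-responsive LIM protein, measured 43.9, 39.9 and 39.4 RPKM at 72 hours and 423, 405 and 396 RPKM at 7 days, with a difference of 3.28 ± 0.18. Sprr1a, a small proline-rich protein of stressed heart muscle, was listed at 0 in all 3 mice at 72 hours and measured 29.3, 15.6 and 24.6 RPKM at 7 days.

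**Figure D4:**
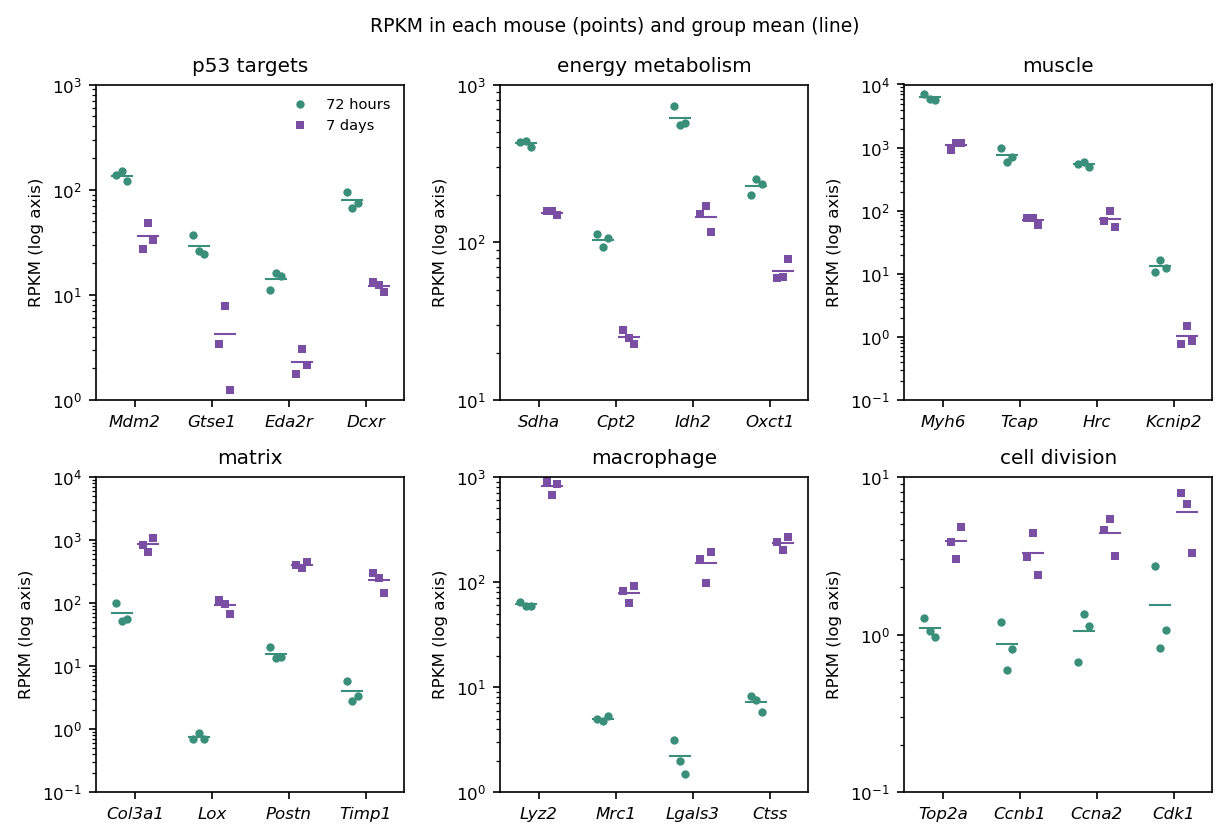
RPKM of 24 genes in each of the 6 mice on log axes: circles are the 3 mice at 72 hours, squares the 3 mice at 7 days, and lines the group means. In the upper panels the 7-day mice lie below the 72-hour mice for every gene, and in the lower panels they are the higher ones.

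Many p53 target genes stood out at 72 hours, and many were lower at 7 days than at 72 hours. The activity of p53 itself was not measured. Of 38 p53 target genes tested, of 40 in the table, 20 were lower and 3 higher (median -0.73). At 72 hours 23 of the 38 lay above all 9 other mice, against 7.58% of all genes tested. At 7 days 14 of the 38 did, against 22.7% of all genes tested, counted separately at each time. Mdm2, the ubiquitin ligase that p53 induces and that degrades it, measured 139, 149 and 119.8 RPKM at 72 hours and 27.4, 48.1 and 33.3 RPKM at 7 days. The 9 other mice ranged from 18.5 to 35.3 RPKM, so that the 7-day values overlapped them, and the step was -1.91 ± 0.19 (adjusted p = 5.33e-07). Gtse1, a regulator of p53 and of the cell cycle, measured 37.2, 25.9 and 24.2 RPKM at 72 hours and 3.44, 7.92 and 1.26 RPKM at 7 days against a range of 0.05 to 0.57 RPKM in the 9 other mice (difference -2.73 ± 0.34). Eda2r, a death-domain receptor, measured 11.1, 16.2 and 15.1 RPKM at 72 hours and 1.76, 3.04 and 2.17 RPKM at 7 days. Dcxr, a carbonyl reductase, measured 95.6, 67.2 and 74.9 RPKM at 72 hours and 13.2, 12.5 and 10.8 RPKM at 7 days. Both fell without overlap, with differences of -2.19 and -2.60. Cdkn1a, the cell cycle inhibitor p21, did not follow them: its values of 98.1, 59.9 and 59 RPKM at 72 hours and 59.7, 84.5 and 39.3 RPKM at 7 days overlapped (difference -0.26 ± 0.30, adjusted p = 0.502), and it is named after its values were seen. Perp, a membrane target of p53, rose by 1.22 log2.

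Several of the largest falls were of this kind, high at 72 hours and low in the 9 other mice. 1700007K13Rik measured 58.5, 37.2 and 47.3 RPKM at 72 hours and 2.66, 7.82 and 2.66 RPKM at 7 days and at most 0.25 RPKM in the 9 other mice. Fam166a (BC061039 in the table) measured 32.4, 14.3 and 13.1 RPKM at 72 hours and 0.73, 1.75 and 0 RPKM at 7 days. Dffb, the nuclease that cuts DNA in apoptosis, measured 26.3, 20.2 and 17.5 RPKM at 72 hours and 1.92, 3.08 and 1.19 RPKM at 7 days. All 3 genes were lower in every 7-day mouse than in every 72-hour mouse, and Fam166a and Dffb then overlapped the 9 other mice. Fam166a shares 10.8% of its exon bases with Tubb2c on the other strand, and Tubb2c, at 0.17, was not called. Other large falls belonged to genes with a high level in the 9 mice. Lrtm1, the largest fall of all, measured 46, 37.2 and 39.3 RPKM at 72 hours and 2.62, 2.12 and 0.64 RPKM at 7 days (difference -3.98 ± 0.23) against 74.5 and 83 RPKM as the lowest and highest of the mice without the transgene. Dhrs7c, an oxidoreductase of the sarcoplasmic reticulum, measured 77, 43.4 and 48.1 RPKM at 72 hours and 3.42, 5.08 and 3.53 RPKM at 7 days.

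Heat shock proteins fell too. Of 27 genes, all tested, 13 were lower and 0 higher (median -0.61). Hsph1 (Hsp110 in the table), a nucleotide exchange factor of the large Hsp70 family, measured 23.5, 28.5 and 26.4 RPKM at 72 hours and 6.28, 7.68 and 4.41 RPKM at 7 days (difference -1.95 ± 0.19, adjusted p = 3.18e-07). Hsf1, the transcription factor of the heat shock response, measured 30.6, 21.5 and 20.9 RPKM at 72 hours and 8.62, 8.49 and 4.54 RPKM at 7 days, and every 7-day value lay under every 72-hour value (difference -1.65 ± 0.22). Dnajb1, an Hsp70 co-chaperone, and the mitochondrial pair Hspd1 and Hspe1 fell with differences of -1.42, -1.11 and -0.91. Heat shock genes are known for sites of the form GAANNTTC near their start, where heat shock factor binds. Of 21 tested members with a RefSeq promoter, 6 (28.6%) held GAANNTTC on either strand in the 250 bases before the start, against 6.78% of 27025 genes. The 120 bases before the start of the 3 lower members with the smallest p that hold it there are shown to let the site be seen in its place, with GAANNTTC in capitals (RefSeq, GRCm38.p6, 5′ to 3′ on the strand of the gene). The paralogs Hspa1a and Hspa1b are nearly identical, and reads could not be assigned between them with certainty.
Hspe1 (chr1:55088028-55088147, + strand): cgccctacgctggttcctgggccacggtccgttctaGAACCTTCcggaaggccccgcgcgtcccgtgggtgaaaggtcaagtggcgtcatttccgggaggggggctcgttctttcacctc
Hspa1b (chr17:34959239-34959358, - strand): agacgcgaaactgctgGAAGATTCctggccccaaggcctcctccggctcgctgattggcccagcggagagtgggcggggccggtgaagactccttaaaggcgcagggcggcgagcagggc
Hspa1a (chr17:34972157-34972276, - strand): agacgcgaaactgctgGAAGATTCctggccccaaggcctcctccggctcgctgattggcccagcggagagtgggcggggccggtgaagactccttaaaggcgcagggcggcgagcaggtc
A match is a description of these letters and not a measured site. Hspa1b, the inducible Hsp70, measured 26.5, 12.7 and 18.5 RPKM at 72 hours and 7.58, 13 and 4.79 RPKM at 7 days. Hspa1a, its copy, measured 23.4, 12.4 and 17.3 RPKM at 72 hours and 7.42, 12.4 and 4.33 RPKM at 7 days. Both overlapped between the times through A3283 although they passed (adjusted p = 0.0143 and 0.0162), and neither passed without A3278, without A3269 or with the column number as a term. Hspe1 measured 176, 137 and 142 RPKM at 72 hours and 90.4, 89.9 and 62.8 RPKM at 7 days without overlap.

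Genes of the extracellular matrix were higher at 7 days in each of the 4 lists that cover it. Of 19 collagen chain genes tested, of 21 in the table, 17 were higher and 1 lower (median 2.08); 2 of the 19 passed the filter on low values only through their 7-day values, which had to differ, and with no filter 17 of the 21 were higher and 2 lower. Col3a1, of fibrillar type III, measured 100.3, 52.7 and 56.8 RPKM at 72 hours and 826, 653 and 1079 RPKM at 7 days, a difference of 3.62 ± 0.31 (adjusted p = 9.02e-08). Col1a1, of type I, measured 73.3, 28.7 and 33.7 RPKM at 72 hours and 513, 358 and 490.0 RPKM at 7 days, with A3278 at more than the other mice of 72 hours and still far under the 7-day mice. Col5a2, of the minor fibril chains, had the smallest p of the list, at 9.08, 7.96 and 6.7 RPKM at 72 hours and 152, 125 and 152 RPKM at 7 days (difference 4.02 ± 0.21). Col12a1 and Col11a1, at 0.25 RPKM or less in each 72-hour mouse, measured 6.63, 6.78 and 6.04 RPKM and 8.85, 2.86 and 12 RPKM at 7 days. The basement membrane chains Col4a1 and Col4a2 rose by 1.95 and 2.08 log2, and Col4a4, named after its values were seen, was the 1 lower chain (-0.53), a call lost in 4 settings.

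Enzymes that finish collagen rose with it. Of 20 tested, 15 were higher and 0 lower (median 1.27); 2 were tested only through their 7-day values, and with no filter 17 of 22 were higher. Lox, lysyl oxidase, which cross-links collagen and elastin, measured 0.69, 0.865 and 0.705 RPKM at 72 hours and 113, 96.7 and 67.6 RPKM at 7 days. Its 72-hour values lay near those of the 9 other mice (0.135 to 0.96 RPKM), and the difference of 5.70 ± 0.22 was the second largest rise of all genes (adjusted p = 1.59e-11). Loxl2, Loxl3 and Loxl4, its relatives, rose by 2.90, 3.09 and 2.19 log2. Adamts2 and Bmp1, which trim procollagen ends, rose by 2.27 and 1.54.

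Matricellular and provisional matrix genes had 28 of 35 tested members higher and 0 lower (median 2.23); 4 were tested only through their 7-day values, and with no filter 29 of 38 were higher. Spp1, osteopontin, measured 0.85, 0.785 and 0.155 RPKM at 72 hours and 153, 79.8 and 83.1 RPKM at 7 days, the largest rise of the transcriptome at 6.02 ± 0.27 (adjusted p = 7.88e-11). Postn, periostin of activated fibroblasts, measured 19.9, 13.4 and 13.8 RPKM at 72 hours and 397, 363 and 446 RPKM at 7 days (difference 4.61 ± 0.29, adjusted p = 2.94e-09). Tnc, tenascin C, measured 0.87, 0.515 and 0.63 RPKM at 72 hours and 32.8, 42.6 and 31.3 RPKM at 7 days. These 3 genes did not overlap between the times, and at 72 hours their values lay within or overlapped the range of the 9 other mice. Fn1 (fibronectin), Fbn1 (fibrillin of microfibrils), Eln (elastin) and Cthrc1, a marker of collagen-making fibroblasts, rose by 3.25, 3.75, 2.46 and 3.39 log2. When each of the 6 mice was left out in turn, the number of higher members lay between 26 and 29.

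Proteases and their inhibitors rose side by side, 20 of 24 tested being higher and 0 lower; 5 were tested only through their 7-day values, and with no filter 23 of 27 were higher. Timp1, an inhibitor of matrix metalloproteases, measured 5.88, 2.81 and 3.4 RPKM at 72 hours and 301, 245 and 144 RPKM at 7 days, a difference of 5.50 ± 0.39 (adjusted p = 1.28e-08), with A3269 lowest at 7 days. Mmp3, stromelysin, measured 0.04, 0.14 and 0.07 RPKM at 72 hours and 18.6, 27.4 and 10.6 RPKM at 7 days. Mmp14, a membrane-bound protease, measured 6.32, 5.13 and 4.47 RPKM at 72 hours and 42.7, 36.7 and 37.9 RPKM at 7 days. Both were higher in every 7-day mouse. Adam8, a protease of myeloid cells, rose by 4.38 log2. Of 28 genes of TGF-β and BMP signalling, 9 were higher and 2 lower; 2 of the 28 were tested only through their 7-day values, and with no filter 11 of 37 were higher and 2 lower. The lower count was 0 without A3278 and 0 without A3269. Tgfb2, a ligand, measured 4.42, 2.35 and 2.73 RPKM at 72 hours and 26.1, 29.4 and 22.8 RPKM at 7 days (difference 2.73 ± 0.22, adjusted p = 3.65e-08), Tgfb1 rose by 1.27 log2, and the receptors Tgfbr1 and Tgfbr2 by 0.93 and 0.95. Id1, a target of BMP signals, fell by 1.30, a call lost without A3278, without A3269 and with no filter. Of 26 integrins and laminins, 14 were higher and 3 lower, with Itga5, the fibronectin receptor, at 27, 16.2 and 18.7 RPKM at 72 hours and 88.2, 93.9 and 61 RPKM at 7 days.

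Every tested gene of the macrophage list rose. Of its 43 members 39 were tested, and all 39 were higher and did not overlap between the times (median 2.87); 5 of them passed the filter only through their 7-day values. With no filter, 41 of the 43 were higher and 1 lower. Lyz2 (Lyzs in the table), lysozyme, measured 64.8, 59.1 and 59.7 RPKM at 72 hours and 910.2, 671 and 857 RPKM at 7 days. Mrc1, the mannose receptor, measured 4.98, 4.74 and 5.33 RPKM at 72 hours and 82.7, 63.3 and 92 RPKM at 7 days. Lgals3, galectin 3, measured 3.12, 1.99 and 1.5 RPKM at 72 hours and 166, 96.8 and 191 RPKM at 7 days. The differences of these 3 were 3.70 ± 0.22, 3.72 ± 0.17 and 5.55 ± 0.28, with adjusted p of 1.11e-09, 1.25e-10 and 2.73e-10. Lysozyme has a near-identical neighbour, Lyz1 (Lyz in the table), so reads may be shared between them. Cd68, a lysosomal glycoprotein of macrophages, measured 11.9, 5.61 and 6.46 RPKM at 72 hours and 92.6, 66.6 and 82.4 RPKM at 7 days, and Csf1r, the receptor for their growth factor, rose by 2.31 log2. Itgam, a complement receptor of myeloid cells, and Cd163, the haptoglobin-haemoglobin receptor, rose by 3.96 and 3.38 log2. Summed over the 43 genes, the level ran from 260.2 to 392 RPKM at 72 hours and from 2609 to 3583 RPKM at 7 days. The gene that was lower with no filter was Timd4, a receptor of long-lived resident macrophages, with 1.91, 0.9 and 1.45 RPKM at 72 hours and 0.425, 0.405 and 0.82 RPKM at 7 days; it was chosen after its values were seen (adjusted p = 0.0288).

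Genes of alternative activation and of chemoattraction were among the largest rises. Chil3 (Chi3l3 in the table), a chitinase-like protein with a near-identical neighbour, was listed at 0 in 2 of the 3 mice at 72 hours and measured 49.4, 69.6 and 41 RPKM at 7 days. Arg1, arginase, measured 0.57, 0.8 and 0.425 RPKM at 72 hours and 60.1, 52.8 and 13.5 RPKM at 7 days, with A3269 lowest at 7 days. Ccl6, a chemokine of myeloid cells, measured 5.65, 7.25 and 7.86 RPKM at 72 hours and 381, 305 and 216 RPKM at 7 days (difference 5.22 ± 0.31). Ccl9, its relative, measured 5.4, 3.22 and 4.38 RPKM at 72 hours and 113, 85.7 and 62.1 RPKM at 7 days (difference 4.02 ± 0.31). None of these genes overlapped between the times. Of 30 genes of acute inflammation and chemokines tested, 17 were higher and 0 lower, but 5 of them were tested only through their 7-day values. With no filter, 16 of the 41 in the table were higher and 2 lower. The lower ones were Ccl5 and Cxcl9, chemokines for T cells, with differences of -1.06 and -1.12 and adjusted p of 0.0359 and 0.0268 (limma, no filter). Lcn2, which binds bacterial iron carriers, and Serpina3n, an acute phase inhibitor, rose by 4.58 and 4.48 log2. Ccl2, the monocyte attractant, was already above the 9 other mice (0.295 to 2.12 RPKM) at 72 hours, and measured 12.8, 12.7 and 15.8 RPKM at 72 hours and 40.3, 58.5 and 23.8 RPKM at 7 days (difference 1.42 ± 0.30).

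Complement and lysosome genes moved with them. Of 16 complement genes tested, 11 were higher and 0 lower. C3ar1 and C5ar1, receptors for complement fragments, rose by 4.11 and 2.65 log2, and C1qa, of the recognition complex, measured 53.2, 26.3 and 29.1 RPKM at 72 hours and 171, 102 and 119 RPKM at 7 days (difference 1.86 ± 0.28). Of 32 lysosome genes, 23 were higher and 0 lower (median 1.01). Ctss, cathepsin S, measured 8.29, 7.58 and 5.82 RPKM at 72 hours and 239.5, 201 and 265 RPKM at 7 days (difference 4.85 ± 0.25, adjusted p = 3.69e-10). Ctsl, cathepsin L, and Grn, progranulin, rose by 2.26 and 2.27. Of 34 interferon and antigen presentation genes, 5 were higher and 9 lower. The share of lower genes was close to the 22.3% over all genes, and that of higher genes was under the 22.6%. Without A3278, 7 were higher and 6 lower, and without A3281 or A3264 3 were higher. Ifi30, a lysosomal reductase of antigen-presenting cells, rose by 1.73, whereas Tap1, the peptide transporter for class I molecules, measured 22.4, 10.5 and 10.1 RPKM at 72 hours and 5.02, 3.71 and 3.67 RPKM at 7 days and fell by 1.50.

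Markers of other cell types did not share 1 direction. Of 4 neutrophil markers tested, of 9 in the table, 4 were higher, and 3 of them were tested only through their 7-day values. S100a8, a calcium-binding protein of neutrophil granules, measured 0.22, 0 and 1.06 RPKM at 72 hours and 10.7, 10.4 and 5.31 RPKM at 7 days. S100a9, its partner, measured 0.49, 0.51 and 1.22 RPKM at 72 hours and 13, 7.88 and 10.5 RPKM at 7 days. Of 15 lymphocyte markers 1 was tested, and only through its 7-day values: Cd3e, of the T cell receptor complex, at 0.37, 0.03 and 0.65 RPKM at 72 hours and 13.7, 13.2 and 6.76 RPKM at 7 days. Its partner Cd3d stood at 0.110 RPKM or less in all 6 mice. Of 20 fibroblast markers, 11 were higher and 2 lower. Pdgfra, a receptor on most cardiac fibroblasts, measured 6.73, 5.54 and 5.86 RPKM at 72 hours and 26.7, 29.2 and 22.1 RPKM at 7 days (difference 1.93 ± 0.20). Tcf21 and Dpt, markers of resting fibroblasts named after their values were seen, differed by 0.22 ± 0.24 and 0.13 ± 0.22 and did not pass (adjusted p = 0.468 and 0.638). Of 28 endothelial markers, 5 were higher and 9 lower, against 22.6% and 22.3% of all genes. The lower count was 3 without A3278 and 3 without A3269. Cdh5, the cadherin of endothelial junctions, measured 64.2, 57.6 and 51.4 RPKM at 72 hours and 41.7, 42.6 and 32.6 RPKM at 7 days (difference -0.56 ± 0.21, adjusted p = 0.0405), a call lost in 7 settings. Of 16 mural and smooth muscle markers, 6 were higher and 5 lower. Acta2, the actin of smooth muscle and myofibroblasts, measured 73.4, 42.8 and 54.3 RPKM at 72 hours and 136, 129 and 82.2 RPKM at 7 days (difference 1.01 ± 0.25). Myh11, the myosin of mature smooth muscle, measured 12.1, 14.5 and 11.4 RPKM at 72 hours and 6.54, 7.95 and 6.13 RPKM at 7 days (difference -0.80 ± 0.16). Of the nerve and Schwann cell, adipocyte and mesothelial markers, 2, 2 and 1 were tested and 0 passed. All 4 red cell markers tested were lower. Hbb-b1, a β-globin whose near-identical copies may share reads, measured 1817, 719.8 and 887 RPKM at 72 hours and 293, 151 and 36.6 RPKM at 7 days (difference -3.15 ± 0.53, adjusted p = 0.00015). The times did not overlap, and the 3 values within 7 days were far apart. The part of any of these cells in the other results was not tested.

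**Figure D5:**
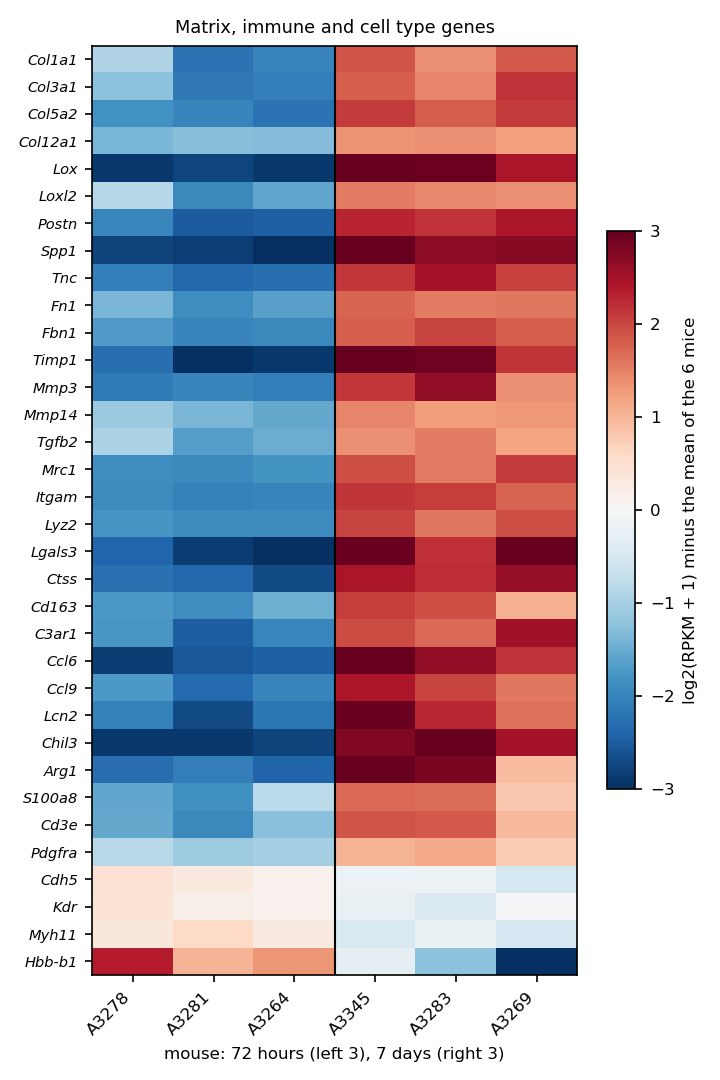
Rows are genes of matrix, immune cells and other cell types, and columns the 6 mice, 72 hours to the left of the line and 7 days to the right. Colour gives log2(RPKM + 1) minus the mean of the 6 mice, limited to 3 in either direction. The matrix and immune rows change from blue to red at the line in every mouse. The rows of the endothelial genes Cdh5 and Kdr and of Myh11 are pale, and the β-globin row changes the other way with its highest value in A3278.

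Cell division genes rose from low levels. Of 28 tested, of 49 in the table, 18 were higher and 0 lower (median 0.96); 9 of the 28 were tested only through their 7-day values. With no filter, 34 of the 49 were higher and 0 lower, and no member passed where a mean of at least 5 RPKM was asked. Top2a, the topoisomerase of dividing cells, measured 1.28, 1.05 and 0.965 RPKM at 72 hours and 3.88, 3.02 and 4.82 RPKM at 7 days (difference 1.21 ± 0.22, adjusted p = 0.000322). Ccnb1, cyclin B1, measured 1.2, 0.595 and 0.81 RPKM at 72 hours and 3.1, 4.42 and 2.38 RPKM at 7 days. Ccna2, cyclin A2, measured 0.67, 1.36 and 1.13 RPKM at 72 hours and 4.59, 5.39 and 3.13 RPKM at 7 days. Neither cyclin overlapped between the times. Cdk1 (Cdc2a in the table), their kinase partner, measured 2.72, 0.82 and 1.07 RPKM at 72 hours and 7.89, 6.73 and 3.27 RPKM at 7 days, and Foxm1, a transcription factor of mitotic genes, rose by 0.92 log2. Of 28 DNA replication genes, 16 were higher and 1 lower, against 14 and 1 of the 36 in the table with no filter; without A3264, and likewise without A3345, 10 were higher. Pcna, the sliding clamp, was steady within each time at 25.5, 25.7 and 25.7 RPKM at 72 hours and 48.2, 50.5 and 50.3 RPKM at 7 days (difference 0.93 ± 0.13, adjusted p = 3.09e-05). Mcm6, of the replicative helicase, rose by 1.26, and Dut, which removes dUTP, fell by 1.05.

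The promoters of cell division genes are known for CCAAT boxes, bound by NF-Y, and for the element TTTGAA, bound by the MuvB complex. Of 22 tested members with a RefSeq promoter, 18 (81.8%) held CCAAT on either strand in the 250 bases before the start, against 34.5% of 27025 genes. TTTGAA was in 10 of them (45.5%) against 16.3% of all genes, counted separately from CCAAT whether or not the letters overlap. The 120 bases before the start are shown for the 3 higher members with the smallest p that hold CCAAT there, with each match in capitals (ATTGG where it lies on the other strand; RefSeq, GRCm38.p6, 5′ to 3′ on the strand of the gene).
Top2a (chr11:99024190-99024309, - strand): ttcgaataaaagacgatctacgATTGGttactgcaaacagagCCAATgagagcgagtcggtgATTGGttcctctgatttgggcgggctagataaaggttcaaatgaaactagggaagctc
Ccnb1 (chr13:100786487-100786606, - strand): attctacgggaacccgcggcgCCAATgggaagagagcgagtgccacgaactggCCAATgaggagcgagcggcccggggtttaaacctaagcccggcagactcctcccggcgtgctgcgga
Smc2 (chr4:52439101-52439220, + strand): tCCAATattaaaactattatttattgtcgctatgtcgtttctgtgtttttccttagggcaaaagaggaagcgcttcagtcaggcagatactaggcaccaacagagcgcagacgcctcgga
Within these 120 bases Top2a holds 3 matches, Ccnb1 2 and Smc2 1, as a description of letters only. Smc2, a condensin subunit, measured 0.76, 1.43 and 0.91 RPKM at 72 hours and 2.66, 3.25 and 3.01 RPKM at 7 days.

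In all, 13 pairs of a list and a motif were searched in the 250 bases before the start, on both strands. The site AAGGTCA of oestrogen-related receptors was in 5 of 62 promoters of oxidative phosphorylation genes, in 0 of 24 of the citric acid cycle, in 1 of 28 of fatty acid genes and in 0 of 15 of branched-chain amino acid and ketone genes, against 4.05% of all genes. GCATGCGC, the core bound by NRF1, was in 7 of 62 promoters of oxidative phosphorylation genes against 2.32% of all. The AP-1 site TGAGTCA was in 0 of 22 matricellular and 2 of 15 protease promoters against 4.43% of all. CACGTG was in 6 of 23 lysosome promoters against 6.05%, GAGGAA in 15 of 29 macrophage promoters against 23.1%, and the E2F site TTTCGCGC in 3 of 23 DNA replication promoters against 0.255%. Neither a match nor its absence in this window says anything of binding.

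Among protein synthesis genes, 2 pairs of related forms parted, those of ribosomal protein L3 and of elongation factor 1A. Of 76 ribosomal protein genes, 16 were higher and 1 lower, a share of higher genes close to the 22.6% over all genes. The share of lower genes was far under the 22.3% over all genes. The count of higher genes was unstable, at 38 after quantile normalization and from 6 to 23 when single mice were left out. The 1 lower gene, Rpl3l, is the form of ribosomal protein L3 used in muscle, and measured 127, 96.5 and 88.1 RPKM at 72 hours and 8.97, 10.1 and 5.63 RPKM at 7 days (difference -3.52 ± 0.21, adjusted p = 1.11e-09). Rpl3, the form used elsewhere, measured 186, 123 and 116 RPKM at 72 hours and 409.7, 341 and 312 RPKM at 7 days (difference 1.34 ± 0.20, adjusted p = 4.57e-05). The elongation factors showed the same exchange: Eef1a2, of muscle and neurons, measured 1279, 952 and 906 RPKM at 72 hours and 366, 336 and 308 RPKM at 7 days. Eef1a1, its relative of most other tissues, measured 601, 488 and 459 RPKM at 72 hours and 1741, 1415 and 1556 RPKM at 7 days. In each pair the muscle form was lower and the general form higher in every 7-day mouse than in every 72-hour mouse, with differences of -1.62 and 1.61 for the elongation factors. Of 29 translation factors, 12 were higher and 5 lower. Eif4a2, a helicase of initiation, fell by 1.78, and Pabpc1, the main poly(A)-binding protein, rose by 1.27.

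Protein folding in the endoplasmic reticulum and amino acid stress genes rose in part. Of 29 folding genes, 13 were higher and 3 lower, with P4hb, a protein disulphide isomerase that also serves collagen, at 141, 118 and 109 RPKM at 72 hours and 304, 319 and 247 RPKM at 7 days (difference 1.23 ± 0.19) and Edem1, of the removal of misfolded proteins, at 4.42, 4.26 and 4.66 RPKM at 72 hours and 14.4, 13.7 and 15.8 RPKM at 7 days. Of 35 genes of ATF4 and the integrated stress response, 14 were higher and 3 lower; 3 of the 35 were tested only through their 7-day values, and with no filter 14 of the 38 in the table were higher and 5 lower. Slc7a5, an amino acid transporter, and Asns, asparagine synthetase, rose by 1.71 and 0.87 log2, and Nupr1 by 1.82. Gdf15 was among the lower members of this list, with a difference of -1.47. Antioxidant genes had 13 of 28 higher and 5 lower. G6pdx, which makes NADPH, measured 4.94, 3.29 and 2.69 RPKM at 72 hours and 14.4, 13.3 and 13.2 RPKM at 7 days (difference 1.68 ± 0.18), and Hmox1, haem oxygenase, measured 50.9, 40.2 and 36.5 RPKM at 72 hours and 179.6, 237 and 87.3 RPKM at 7 days (difference 1.86 ± 0.31). Sod2, the superoxide dismutase of mitochondria, measured 406, 313 and 282 RPKM at 72 hours and 119, 118 and 88.7 RPKM at 7 days and fell by 1.61 log2.

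Glucocorticoid-responsive genes had 9 of 17 members higher and 2 lower (median 0.99). Fkbp5, a co-chaperone of the receptor, measured 5.5, 8.74 and 10.1 RPKM at 72 hours and 66.8, 63.9 and 59.2 RPKM at 7 days, a difference of 2.85 ± 0.22 (adjusted p = 2.22e-08). Mt2, a metallothionein, measured 60.8, 38.4 and 51.8 RPKM at 72 hours and 671, 782 and 244 RPKM at 7 days, with A3269 lowest at 7 days. Klf15, a glucocorticoid target that also governs lipid use in heart, fell by 1.40 log2. Of 19 circadian genes, 8 were lower and 4 higher, and hour of death, which the labels do not give, cannot be told apart from the step in these. Dbp, an output factor of the clock, measured 49.2, 27.2 and 29.96 RPKM at 72 hours and 6.18, 8.84 and 1.62 RPKM at 7 days, whereas Arntl, a core activator, measured 3.18, 2.81 and 1.72 RPKM at 72 hours and 6.12, 4.93 and 5.04 RPKM at 7 days. Dbp shares 16.7% of its exon bases with Sphk2 on the other strand, and Sphk2 was not called (-0.30). The differences of Dbp and Arntl were -2.63 ± 0.34 and 0.85 ± 0.20 (adjusted p = 9.74e-06 and 0.00238).

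Splicing regulators and known targets of altered splicing in myotonic dystrophy had shares of called members near the 22.6% and 22.3% over all genes, so the counts say nothing particular of them. Of 30 regulators, 6 were higher and 9 lower, Celf1 among the latter. Rbfox1 (A2bp1 in the table), a splicing factor of muscle and brain, measured 5.32, 4.45 and 6.09 RPKM at 72 hours and 0.65, 1.12 and 0 RPKM at 7 days (difference -2.04 ± 0.26, adjusted p = 7.43e-06). Celf2 (Cugbp2 in the table), the closest relative of Celf1, measured 9.43, 11.1 and 11.1 RPKM at 72 hours and 19.7, 21.1 and 30.3 RPKM at 7 days (difference 1.08 ± 0.22, adjusted p = 0.000828). Of 22 target genes 5 were higher and 5 lower in total level, and exon choice was not analysed here. Pdlim3, an adaptor of the Z-disc, rose by 1.68 log2, and Ldb3, another, measured 477, 239 and 311 RPKM at 72 hours and 125, 85.5 and 81.2 RPKM at 7 days and fell by 1.77.

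For immediate early and proteasome genes the shares called were near or below the 22.6% and 22.3% over all genes, and single members are given for their values. Of 26 immediate early genes, 5 were higher and 6 lower, with 2 of the 26 tested only through their 7-day values; over all 28 in the table with no filter the counts were again 5 and 6. Atf3, a stress-induced transcription factor, measured 36.4, 16 and 25.1 RPKM at 72 hours and 7.75, 10.8 and 5.48 RPKM at 7 days (difference -1.54 ± 0.30, adjusted p = 0.00051). Myc, a growth regulator, measured 4.72, 2.94 and 3.67 RPKM at 72 hours and 12.2, 14.3 and 6.6 RPKM at 7 days (difference 1.29 ± 0.27, adjusted p = 0.00103). The 2 genes moved apart without overlap between the times. Without A3278 the number of higher members of this list was 8. Of 17 iron and haem genes, 10 were higher and 2 lower, and Tfrc, the transferrin receptor, measured 6.57, 9.13 and 7.26 RPKM at 72 hours and 14.7, 20.9 and 17.9 RPKM at 7 days (difference 1.12 ± 0.22). Of 34 proteasome genes, 6 were higher and 4 lower. Psmd1, a scaffold of the regulatory particle, measured 27.3, 35.9 and 30.5 RPKM at 72 hours and 61.3, 77.7 and 70.5 RPKM at 7 days (difference 1.14 ± 0.17, adjusted p = 4.83e-05). Of 13 genes of the insulin-like growth factor axis, 5 were higher and 2 lower, and the higher count was 2 when A3281, A3264, A3345 or A3283 was left out. The gene Igf1, the growth factor itself, measured 11, 5.62 and 9.01 RPKM at 72 hours and 22.2, 23.9 and 20.9 RPKM at 7 days (difference 1.33 ± 0.30).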

How the data were processed

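The authors deposited gene expression as RPKM (reads scaled to gene length and library size) for 16042 genes, made with TopHat and Bowtie on mm9, per the submitters' processing notes; no version, read counter or strand setting is given in the sources used here. Columns of 1 mouse were averaged. Depth, estimated from the RPKM steps of 90 olfactory receptor genes, had a median of 23750000 reads per column. The 10868 genes with a mean of at least 1 RPKM over the 15 mice were tested on log2(RPKM + 1) with limma 3.58.1 (R 4.3.3; trend, 5 groups sharing 1 estimate of the spread), 7 days minus 72 hours, with Benjamini-Hochberg adjustment at 0.05. The mice are separate animals. The test was checked on simulated data with independent noise, in which far fewer genes changed than the 44.9% called here.

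Members and the 52 lists (1459 members, 1422 in the table) were chosen with earlier results of these data known, as were the motifs. Genes were named by rule: Celf1, the 25 largest differences each way among called genes without overlap, and up to 8 members per list with the smallest p, of which a part is given. Cox7a2, Uqcrb, Pdk4, Cpt1a, Slc2a4, Actc1, Tpm1, Hcn2, Nppb, Cdkn1a, Perp, Tubb4b, Hspa1b, Hspa1a, Col11a1, Col4a1, Col4a2, Col4a4, Id1, Lyz1, Cd68, Csf1r, Cd163, Ccl2, Tcf21, Dpt, Cdh5, Cdk1, Foxm1, Arntl, Sphk2, Rtn2, Rtn4, Cox6a2, Cox6a1, Pgam2, Pgam1, Hk1, Hk2, Ldha, Retnla, Gdf15, Timd4, Ccl5, Cxcl9, Cd3d, Cd3g, Lck and Cd8a are outside it and were chosen after their values were seen. Of 188 genes looked up in GENCODE vM1, 17 share at least 10% of exon bases with a gene on the other strand: Oxct1, Acadvl, Phkg1, Nmrk2, Kcnj3, Nppa, Fam166a, Hspa1a, Loxl3, Fbn1, Csf1r, Ccna2, G6pdx, Dbp, Sphk2, Rtn4 and Cox6a2. Reads there cannot be told apart without strand. Promoters are RefSeq, GRCm38.p6; no mm9 coordinate is printed. There were 17 alternative settings.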

Additional observations from a re-analysis of the deposited data

How the results depend on the processing

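In 17 alternative settings, no called gene changed sign, and 3203 of the 4879 calls (65.7%) held in all of them. With a mean of at least 5 RPKM as the filter, 7474 genes were tested and 1524 were higher; fewer genes entered. Leaving out each of the 6 mice in turn gave 4194 to 4612 called genes, 2006 to 2523 of them higher and 1855 to 2394 lower. Without any filter, 3127 genes were higher and 2602 lower. With the column number as a term and the mouse as a block, 2782 were higher and 1872 lower, a share of 59.8% higher against 50.3%. Of the 175 named genes that passed, 10 lost their call in at least 1 setting: Ppara, Dkk3, Hspa1b, Hspa1a, Col4a4, Id1, Cdh5, Cox6a1, Pgam1 and Retnla. Uqcrb, which did not pass, differed by -0.53 with the column number as a term (limma adjusted p = 0.0171), and Actc1, which did not pass, by 0.68 after quantile normalization (limma adjusted p = 0.00451); the cause was not tested. With a mean of at least 5 RPKM, higher members numbered 11 instead of 17 for acute inflammation, 7 instead of 14 for ATF4 and 3 instead of 16 for DNA replication. These list counts under other settings were chosen after seeing the data. No paired analysis was possible because the labels name each mouse by a number of its own. Depth limits genes at a low level: 1 read is worth a large part of their value.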

Other observations

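Pairs of related genes are given side by side as values, some of them a muscle form and a general form of 1 protein. Rtn2 and Rtn4 are instead separate members of 1 family. The pairs were chosen after their values were seen, so that the opposite directions are no test. Rtn2, a reticulon of muscle, measured 85.1, 43.1 and 54.1 RPKM at 72 hours and 10.5, 11.2 and 4.21 RPKM at 7 days, while Rtn4, another reticulon, measured 19.7, 32.3 and 28.4 RPKM at 72 hours and 389, 312 and 457 RPKM at 7 days. The differences were -2.72 ± 0.30 and 3.81 ± 0.24, and neither gene overlapped between the times. Among the respiratory genes, Cox6a2, the muscle form of a cytochrome c oxidase subunit, measured 3019.9, 1032 and 1730.0 RPKM at 72 hours and 661, 522 and 375 RPKM at 7 days and fell by 1.79. Cox6a1, its general form, measured 161, 74.5 and 89.97 RPKM at 72 hours and 212, 178 and 131 RPKM at 7 days, with overlap between the times through A3278 (difference 0.73 ± 0.26, limma adjusted p = 0.0286). Pgam2 and Pgam1, muscle and general forms of phosphoglycerate mutase, differed by -1.22 ± 0.27 and 0.65 ± 0.22 (limma adjusted p = 0.00129 and 0.021). Hk1, a hexokinase of most tissues, differed by 1.22 ± 0.19 and Hk2, the muscle hexokinase, by -0.01 ± 0.17, the latter without passing (limma adjusted p = 0.968). Other pairs did not part in this way: Ldhb fell by 1.53, and Ldha differed by 0.02 ± 0.20 and did not pass.

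Macrophage genes outside the common direction were looked for after the values were seen. Retnla, a secreted protein of alternative activation, measured 3.03, 2.63 and 2.23 RPKM at 72 hours and 0.62, 1.23 and 0 RPKM at 7 days (difference -1.24 ± 0.43, limma adjusted p = 0.0268), whereas Arg1 and Chil3, other genes of that state, rose. Of the lymphocyte markers, Cd3e stood at 13.7, 13.2 and 6.76 RPKM at 7 days, while Cd3d, Cd3g, Lck and Cd8a were each at 0.51 RPKM or less in all 6 mice. Mreg and Gdf15, which are not in the macrophage list, stood above the 9 other mice at 72 hours and were lower at 7 days. Mreg, which sorts vesicles, measured 64.7, 69.7 and 47.3 RPKM at 72 hours and 6.26, 11.6 and 5.4 RPKM at 7 days. The 9 other mice ranged from 7.89 to 17.8 RPKM in Mreg, and its step was -2.86 ± 0.24. Gdf15, a secreted stress factor, measured 34.5, 13.8 and 13.8 RPKM at 72 hours and 6.62, 7.08 and 4.94 RPKM at 7 days (difference -1.47 ± 0.35).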
